A study of Mus musculus with 9 samples.

Results

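The immediate early genes are 36 genes, from the AP-1 subunits of the Fos and Jun families to the growth regulators Btg1 and Gadd45b, that were taken by symbol from a table of 55335 genes. All 36 were found, each as 1 row, and all 36 were among the 18259 genes that passed the filter on low counts. Their RNA was measured in leg muscle of 9 WT mice of the strain that the labels write as c57b6l. Every mouse, controls included, had a hindlimb injury model, for which the series text uses both the words suspension and ischemia. The control group was 3 mice left untreated, the aspirin group was 3 mice given aspirin against inflammation, and the third group was 3 mice given aspirin together with a peptide hydrogel. Libraries of the last group are called hydrogel libraries, and all of them also had aspirin. Dose, sex, age and the time from injury or treatment to collection were not given in the labels. Uninjured muscle and hydrogel without aspirin were not analysed here.

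Immediate early genes are transcribed within minutes of a stimulus by factors already present in the cell, chiefly serum response factor with its ETS-type partners and the cAMP-responsive CREB, without new protein synthesis. Growth factors acting through ERK, stress acting through p38 and JNK, and calcium all reach them. Many of their products are transcription factors that drive a later wave of genes, and others, such as the dual-specificity phosphatases and the ZFP36 proteins, end the response by switching off the kinases or degrading short-lived mRNAs. In skeletal muscle they are known as genes of contraction, stretch, injury and ischaemia, and the orphan receptors of the NR4A family as genes of exercise and beta-adrenergic signalling. The comparisons ask whether aspirin, alone or with the hydrogel, goes with another level of these genes in injured muscle.

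The sequences upstream of 4 of the genes that the results turn on are shown for the motifs by which immediate early promoters are recognised. Promoter windows of RefSeq on GRCm38.p6, which run from 250 bases before a start site to 50 after it, were matched for 30 of the 36 genes. The 6 without a window here were Egr1, Egr3, Ier2, Fosl1, Klf10 and Myc, so motifs were not looked for in them. The stretches below, from the first window listed for each gene, end 11 bases before the RefSeq start, are 180 bases long and read 5′ to 3′ on the strand of the gene. The RefSeq start of Nr4a1 lies inside the longer gene of the GENCODE annotation. Capitals mark TGACG, the core bound by CREB and ATF proteins, and GCGNGGGCG, the site of the EGR zinc fingers, on either strand. Junb and Fosb encode AP-1 subunits, Nr4a1 an orphan nuclear receptor and Btg1 an antiproliferative protein.
Junb (chr8:84978759-84978938, minus strand): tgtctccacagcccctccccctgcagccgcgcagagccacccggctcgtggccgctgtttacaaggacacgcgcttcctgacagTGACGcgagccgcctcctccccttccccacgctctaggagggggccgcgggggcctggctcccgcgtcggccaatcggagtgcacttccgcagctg
Fosb (chr7:19310056-19310235, minus strand): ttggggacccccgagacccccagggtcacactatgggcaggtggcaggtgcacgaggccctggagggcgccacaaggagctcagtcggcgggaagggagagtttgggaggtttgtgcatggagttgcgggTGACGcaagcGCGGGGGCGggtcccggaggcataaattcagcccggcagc
Nr4a1 (chr15:101266656-101266835, plus strand): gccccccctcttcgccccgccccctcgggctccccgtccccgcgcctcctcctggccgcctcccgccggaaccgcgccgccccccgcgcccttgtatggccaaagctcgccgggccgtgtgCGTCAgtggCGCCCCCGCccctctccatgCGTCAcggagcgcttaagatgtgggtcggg
Btg1 (chr10:96616811-96616990, plus strand): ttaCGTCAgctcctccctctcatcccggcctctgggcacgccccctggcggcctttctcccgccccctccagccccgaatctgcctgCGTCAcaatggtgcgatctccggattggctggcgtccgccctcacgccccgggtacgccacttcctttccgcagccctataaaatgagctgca
Fosb has a TGACG at -60 to -56 and an EGR site at -50 to -42, and Junb a single TGACG at -106 to -102, counted from the start. In the Nr4a1 stretch a TGACG on the other strand lies on each side of an EGR site at -60 to -52, and the Btg1 stretch holds a pair of TGACG on the other strand. Over the whole windows and both strands, TGACG was in 18 of the 30 genes (60%) and in 23% of the 27025 genes of the table. GCGNGGGCG was in 12 of 30 (40%) against 6.27%. The full CREB site TGACGTCA, which contains TGACG, was in 3 genes, Maff, Dusp1 and Btg2 (10%), against 2.03%. The CArG box, the site of serum response factor, was also in 3, Egr2, Zfp36 and Dusp5 (10%), against 1.81%. The AP-1 site TGANTCA was in 2, Zfp36l1 and Csrnp1 (6.67%), against 8.97%. These are matches of letters, not measured binding, and the genes of the table were not matched to the 30 for base composition.

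Totals ran from 32197791 to 48170537 counts per library. The 10 muscle fibre markers, such as Acta1 and Myh4, were found in every library, with a summed level of 23021 CPM in aspirin 1 and 93913 to 298810 CPM in the other 8 (CPM are counts divided by a library size that was scaled by TMM, the trimmed mean of M-values). Aspirin 1 and hydrogel 3 stood apart from the rest. Of all 18259 genes, 29.2% had their highest and 29% their lowest of 9 values in aspirin 1, and 18.7% and 21.2% in hydrogel 3. In these bulk samples, fewer cells of a type and less RNA per cell cannot be told apart.

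The immediate early genes covered a wide range of levels. By FPKM (fragments per kilobase of gene, scaled to the library, which allows genes to be compared), Nr4a1 was the highest with a mean of 38.0 over the 9 libraries. It was followed by Gadd45g at 33.8, a growth-arrest and stress protein, and Jund at 29.8, the AP-1 subunit that many resting cells already express. Rhob, a small GTPase of endosomes, had 27.1 FPKM, the mRNA decay factor Zfp36l1 25.2 and Jun 23.8. Single libraries overlapped across this order: Nr4a1 ran from 16.6 to 83.3 FPKM and Gadd45g from 9.26 to 65.3. At the other end Fosl1, the AP-1 subunit FRA1, averaged 0.0886 FPKM. It had 0 counts in hydrogel 3, which allows up to 0.1001 CPM (3 counts, counting error only). Whether reads were counted by strand was not given. None of the 36 shares exonic bases with a gene on its own strand, and 10 share some with a gene on the opposite strand, from 11 bases for Dusp1 to 877 for Jund, 1163 for Fosl1 and 1672 for Zfp36l1, so their levels are less certain.

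Values per library are given below in the order of replicates 1, 2 and 3 of each group. The genes differed in how much the 9 libraries spread. For the 35 genes with over 3 counts in every library, all but Fosl1, the median ratio of the highest to the lowest level in CPM was 3.75, against 3.001 over the 15944 tested genes of that kind. The widest were Dusp2 (27.4-fold), a phosphatase of lymphocytes and macrophages, Fosb (22.8-fold), Btg1 (14.3-fold) and Gadd45g (11.6-fold). The most even was Dusp1, the phosphatase of p38 and JNK, which ran only from 50.5 to 81.0 CPM (1.60-fold). Fosl2, the AP-1 subunit FRA2, and Myc, the growth factor-responsive E-box factor, also stayed within 1.94-fold and 1.99-fold.

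The libraries of each treated group did not share 1 level of these genes, while the controls lay closer together. The median of the 36 genes, each taken on the log2 scale as its difference from its own mean over the 9 libraries, was 0.19, 0.13 and 0.07 in the controls. In the aspirin libraries it was 0.52, 0.067 and -0.27, and in the hydrogel libraries -0.45, 0.056 and -0.52. The same median over all 18259 genes lay between -0.037 and 0.046 in every library. Aspirin 1 was the highest library and hydrogel 3 and hydrogel 1 the lowest, while hydrogel 2 lay just below the controls, next to aspirin 2.

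**Figure D1:**
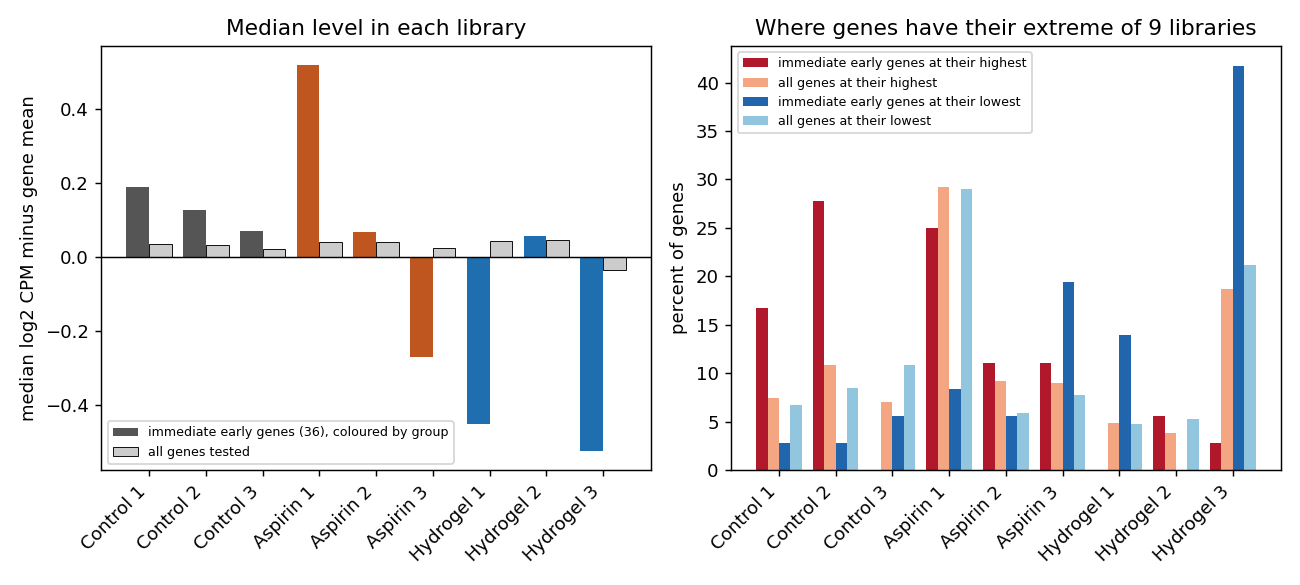
Left, the median over the 36 immediate early genes (coloured bars, grey for control, orange for aspirin, blue for hydrogel libraries) and over all genes tested (pale bars) of log2 CPM minus the gene's mean over 9 libraries; right, the percent of genes with their highest (red shades) or lowest (blue shades) value of 9 in each library. Aspirin 1 has the highest median (0.52) and hydrogel 3 the lowest (-0.52), and 15 of the 36 genes (41.7%) have their lowest value in hydrogel 3, against 21.2% of all genes.

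Hydrogel 3 held the lowest of the 9 values for 15 of the 36 genes (41.7%, against 21.2% of all genes), among them Fos, Junb, Atf3 and Btg1. Control 2 held the highest for 10 (27.8%, against 10.8%), among them Nr4a1, Maff and Mafk. Aspirin 1 held the highest for 9, which at 25% was below the 29.2% of all genes.

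**Figure D2:**
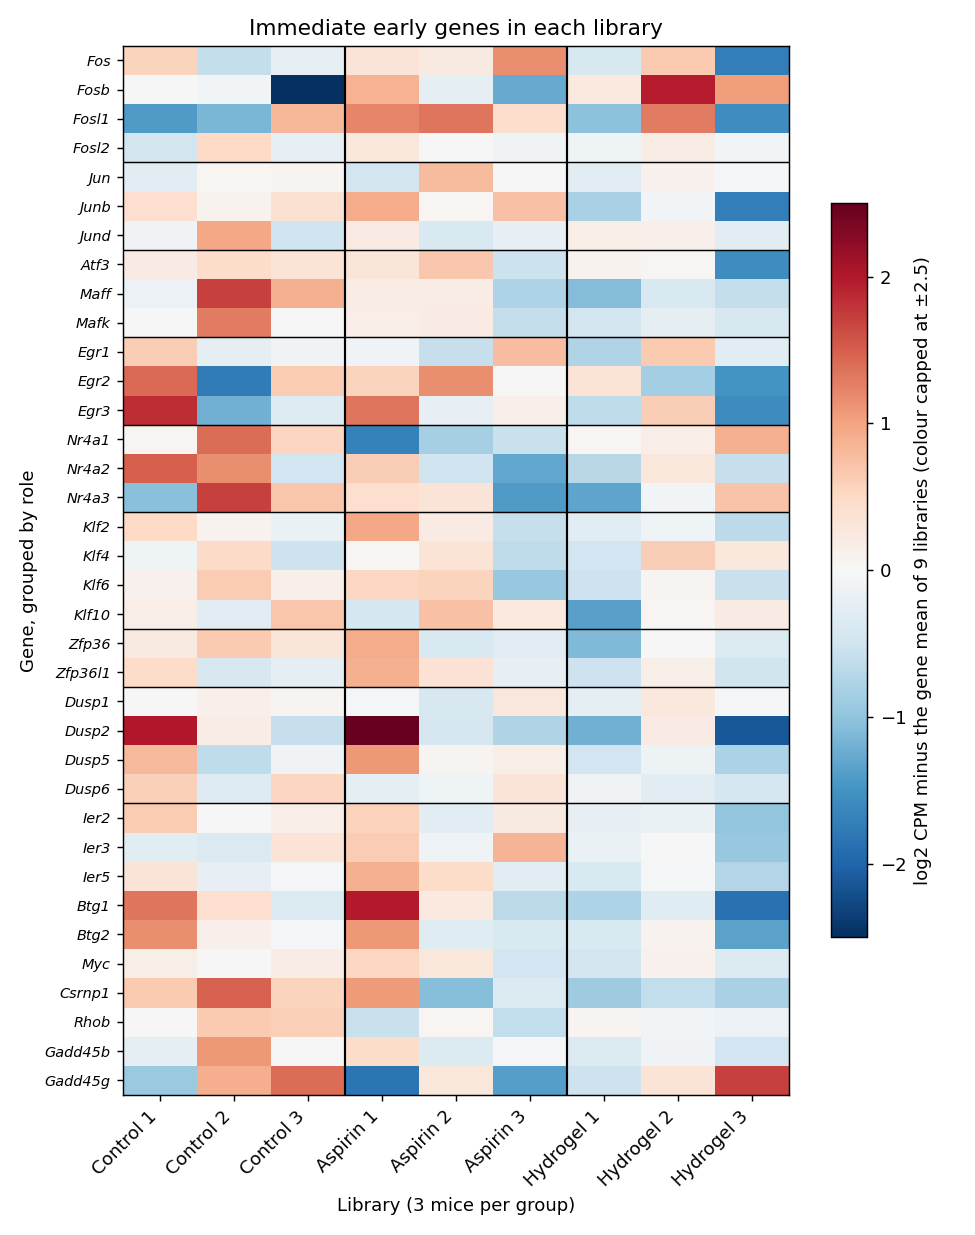
Each cell is the log2 CPM of 1 immediate early gene (rows, grouped by role) in 1 library (columns, 3 per group) minus the gene's mean over 9 libraries, red above and blue below the mean. Hydrogel 3 and hydrogel 1 are blue for most rows, with Fosb and Gadd45g red in hydrogel 3, and Nr4a1 is blue in the 3 aspirin libraries only.

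In muscle treated with aspirin and hydrogel, most immediate early genes stood below the untreated controls, but no gene passed the test. Of the 36, 31 (86.1%) had a lower log2 fold change in the hydrogel group, against 52.9% of all genes tested, with a median of -0.54 against -0.03. By role the medians were -0.94 for Atf3, Maff and Mafk, -0.93 for the EGR zinc fingers, -0.85 for the NR4A receptors and -0.59 for the MAP kinase phosphatases. The 4 Fos subunits had 0.11. The 5 genes with a higher value were Fosb, Fosl1, Fosl2, Klf4 and Gadd45g, of which Fosl2 and Gadd45g had log2 fold changes of 0.0016 and 0.052. Over the reported fit and its 17 alternatives, 23 of the 36 stayed lower and Fosb alone stayed higher. The 36 values come from the same 6 mice, so their count is a description and not a test.

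By edgeR's quasi-likelihood test with Benjamini-Hochberg adjustment, 0 of 36 passed an adjusted p of 0.05 (0% of all genes), and the same held for limma-voom (0%) and for DESeq2, which called 0.0986% of all genes. At an unadjusted edgeR p under 0.05 there were 4 lower genes, Junb, Maff, Mafk and Csrnp1, against 2.18% of all genes, and 1 higher gene, Fosb, against 1.74%. These 5 became 2 without hydrogel 3, 3 without hydrogel 1 or hydrogel 2, and 9 without aspirin 1. All 3 hydrogel libraries lay below all 3 controls for 8 genes (background 6.3%): Junb, Atf3, Maff, Mafk, Klf6, Zfp36, Ier2 and Csrnp1. They lay above them for 1, Fosb (background 6.85%). The median held its sign when any 1 of the 9 libraries was left out, from -0.79 without hydrogel 2 to -0.42 without control 1, with 28 to 34 genes lower. With library size alone, 34 were lower, against 74.3% of all genes.

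Against aspirin alone, the muscles with hydrogel again had lower values for most immediate early genes, and again none passed. 28 of 36 (77.8%) were lower, against 53.3% of all genes, with a median of -0.52 against -0.053. The 8 higher genes were Nr4a1, Gadd45g, Fosb, Rhob, Klf4, Jund, Dusp1 and Nr4a3. The median depended on aspirin 1: without it the value was -0.22, against -0.0039 for all genes, with 26 of 36 genes lower. With library size alone, 33 were lower, against 77% of all genes. Comparisons with control and with aspirin share the hydrogel libraries.

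By edgeR 0 of 36 passed the adjusted p (0%), and limma-voom (0%) and DESeq2 (0.86% of all genes) also called none of the 36. The unadjusted edgeR p was under 0.05 for 3 lower genes, Junb, Ier5 and Btg1, where the background of 7.61% is close to that share, and for 1 higher gene, Nr4a1 (background 3.32%). These 4 became 1 without hydrogel 3, 2 without hydrogel 1, 7 without aspirin 2 and 9 without aspirin 3. Junb and Dusp5 were lower in all 3 hydrogel than in all 3 aspirin libraries (background 8.75%), and Nr4a1 higher (background 7.46%).

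With aspirin alone the immediate early genes lay on both sides of the controls. 20 of 36 were lower than in the controls, against 46% of all genes, with a median of -0.059 against 0.046, and leaving out 1 library moved that count between 14 (without aspirin 3) and 26 (without aspirin 1). With library size alone in place of TMM, 10 of 36 were lower, against 31.1% of all genes. By role the medians ran to 0.59 for the 4 Fos subunits and -1.12 for the 3 NR4A receptors. Of the 4 Fos subunits, 0 had an unadjusted edgeR p under 0.05. Fosb reversed to -0.17 without aspirin 1 and Fosl2 to -0.12 without control 1, while Fos and Fosl1 kept their sign. Nr4a1 was 3.30-fold lower and was the only one of the 36 with no overlap between the groups, against a background of 5.44% for lower genes and 5.54% for higher ones, of which there were 0.

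By edgeR 0 of 36 passed the adjusted p (0%), as in limma-voom (0%). DESeq2, run as an alternative, called Nr4a1 lower with an adjusted p of 0.0329, among 0.553% of all genes called. The unadjusted edgeR p was under 0.05 for 2 lower genes, Nr4a1 and Rhob (background 3.39%), and for 0 higher genes (background 3.09%). These 2 became 5 without aspirin 1 and 4 without control 1. In the edgeR test of any difference among the 3 groups, 0 of 36 passed the adjusted p (0%), with a smallest adjusted p of 0.659. At an unadjusted p under 0.05 there were 5, Junb, Maff, Nr4a1, Csrnp1 and Rhob, against 6.97% of all genes.

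**Figure D3:**
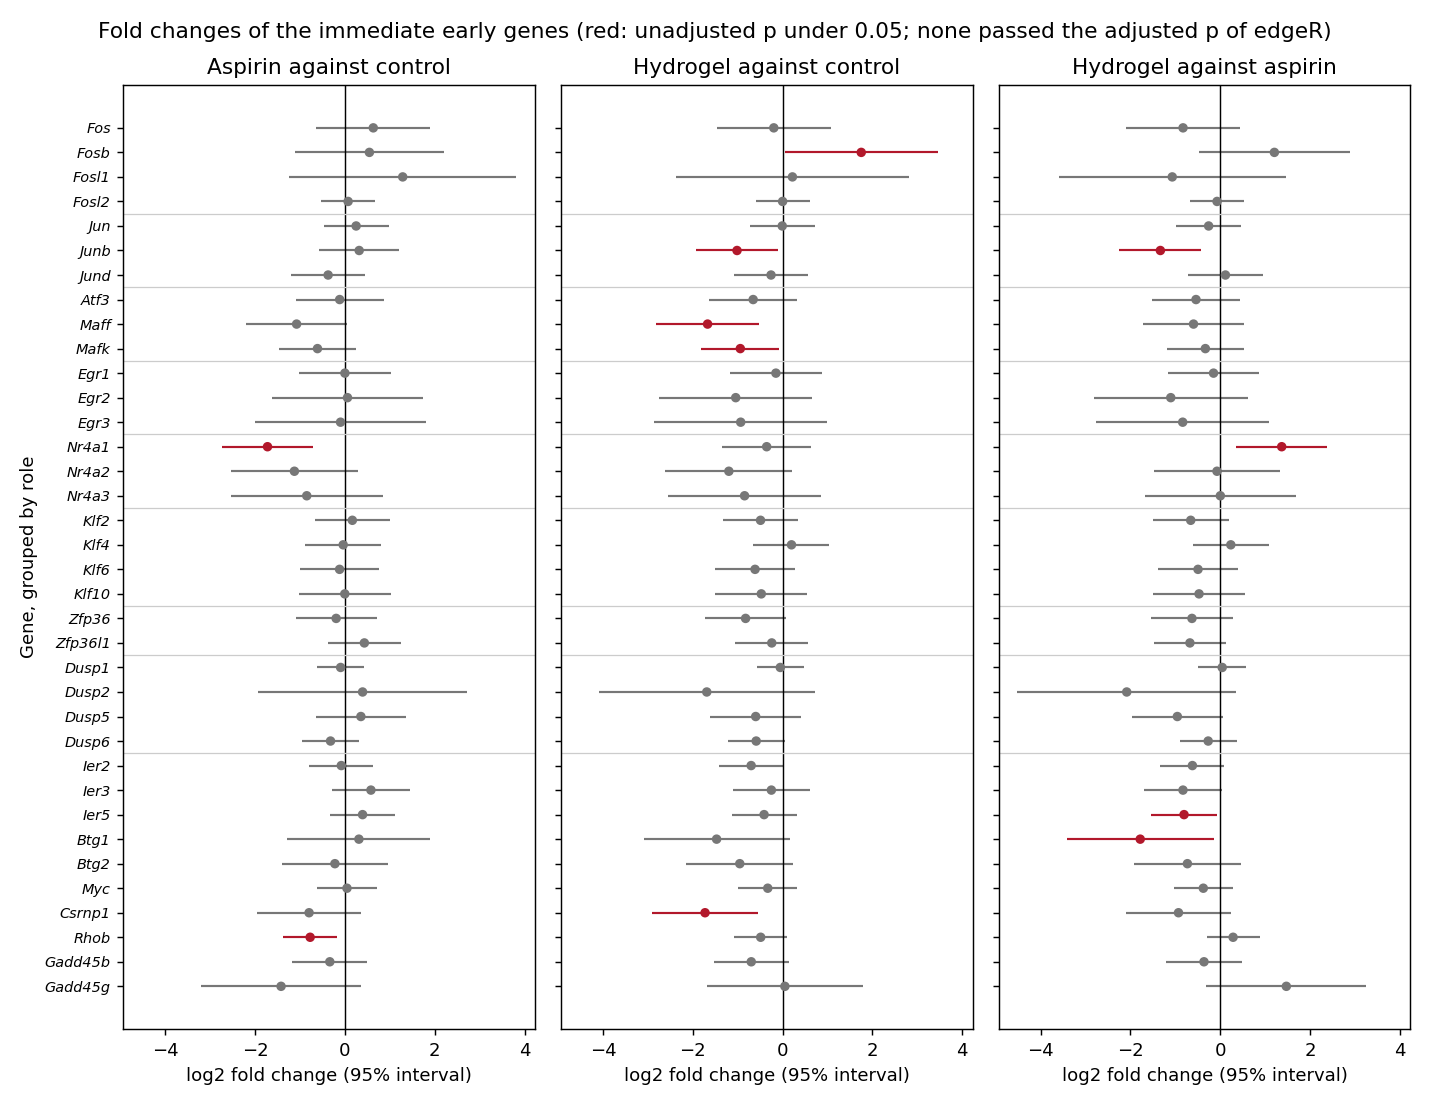
Points are log2 fold changes of the 36 immediate early genes with 95% intervals from edgeR's quasi-likelihood fit, in the 3 comparisons, with red for an unadjusted p under 0.05. In both comparisons of the hydrogel group most points lie left of 0 (31 and 28 of 36), while aspirin against control has 20 of 36 left of 0; no gene passed the adjusted p by edgeR.

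The summed levels of markers of other cells also varied between these groups. The summed level of 9 neutrophil markers was 21.0 to 169 CPM in the controls, 32.7 to 411 CPM with aspirin and 11.2 to 31.8 CPM with hydrogel, with Ly6g, Cxcr2 and Retnlg at 0 in some libraries. Among the 8 of them tested, all 8 had a lower log2 fold change with hydrogel in both comparisons, with medians of -2.07 against control and -3.47 against aspirin. The 10 macrophage markers summed to 681 to 1921 CPM, 1450 to 3320 CPM and 591 to 1504 CPM in the 3 groups, and the 5 erythroid genes to 345 to 6189 CPM, 427 to 4318 CPM and 398 to 755 CPM. All 10 macrophage markers had a higher log2 fold change with aspirin than in the controls (median 1.05). With hydrogel, 10 of 10 were lower than with aspirin (median -1.17) and 7 of 10 lower than in the controls. Of the 10 muscle fibre markers, 10 were higher with hydrogel than with aspirin (median 0.68) and 8 higher than in the controls. For 10 endothelial markers the ranges were 419 to 743 CPM in the controls, 242 to 336 CPM with aspirin and 352 to 531 CPM with hydrogel, and with aspirin 10 of 10 had a lower log2 fold change than in the controls, 8 of them at an unadjusted edgeR p under 0.05. The 8 adipocyte markers summed to 2707 to 4218 CPM, 669.9 to 2038 CPM and 669.4 to 3394 CPM, and all 8 had a lower log2 fold change in both treated groups than in the controls, with medians of -1.37 and -0.76. The 8 fibroblast markers summed to 6755 to 11352 CPM, 6140.3 to 11451 CPM and 4691 to 7199.98 CPM, and 8 of 8 had a lower log2 fold change with hydrogel than with aspirin. For the 7 satellite cell markers the sums were 43.0 to 76.7 CPM, 60.9 to 139 CPM and 69.3 to 81.8 CPM, for 9 smooth muscle and pericyte markers 537 to 683 CPM, 348 to 464 CPM and 467 to 539 CPM, and for 5 Schwann cell markers 23.4 to 64.8 CPM, 24.5 to 71.1 CPM and 17.6 to 52.6 CPM. Over all genes tested, 46% were lower for aspirin against control, and 3.39% were lower at an unadjusted edgeR p under 0.05. For hydrogel, 52.9% of all genes were lower against control and 53.3% against aspirin. None of the tested markers in these lists, neutrophil, macrophage and erythroid ones included, passed the adjusted p by edgeR in any of the 3 comparisons. The part of these cells in the levels of the immediate early genes was not tested. The labels also give each library a code. Its first number was 9 for the controls, 8 for the hydrogel libraries, 7 for aspirin 1 and aspirin 2 and 10 for aspirin 3. No first number is shared between groups, so anything it marks cannot be told apart from treatment. Within the aspirin group it sets aspirin 3 apart. The other number of the code is shared by some libraries of different groups. What it marks was not given, and it was not used.

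AP-1 is a dimer of Fos and Jun family proteins, and of its 7 subunits Junb and Fosb differed the most between the groups. Junb, a subunit that often restrains Jun (ENSMUSG00000052837, chromosome 8, 84974484 to 84978718, minus strand, mm10), was at 31.3, 24.9 and 30.5 CPM in the controls, 44.8, 24.3 and 38.9 CPM with aspirin and 13.4, 22.5 and 7.04 CPM with the hydrogel. All 3 hydrogel libraries lay below all 6 of the others, with hydrogel 3 the lowest. Its log2 fold change was -1.33 ± 0.40 (SE) against aspirin, with a 95% interval of -2.24 to -0.42, and -1.01 ± 0.40 against control, with adjusted p-values of 0.453 and 0.987 by edgeR. Junb shares 173 exonic bases with the opposite-strand gene Prdx2, and their reads cannot be told apart if strand was ignored.

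Fosb (ENSMUSG00000003545, chromosome 7, 19302696 to 19310051, minus strand), a Fos-type subunit that also gives the long-lived deltaFosB, was at 6.86, 6.61 and 1.19 CPM in the controls, 12.6, 5.90 and 2.89 CPM with aspirin and 8.15, 27.2 and 14.2 CPM with the hydrogel. The hydrogel libraries were above the controls without overlap, led by hydrogel 2, whereas the aspirin libraries overlapped both groups. The log2 fold change against control was 1.75 ± 0.75 with a 95% interval of 0.047 to 3.46, and the adjusted p was 0.987 by edgeR. Against aspirin it was 1.21 ± 0.74, and 0.57 with library size alone.

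Fos itself, the prototype of the immediate early genes, was at 38.6, 17.4 and 22.6 CPM in the controls, 32.7, 30.6 and 58.6 CPM with aspirin and 19.8, 41.0 and 7.88 CPM with the hydrogel. The 3 groups overlapped. Aspirin 3 was the highest library, hydrogel 2 the next and hydrogel 3 the lowest. Log2 fold changes were 0.63 ± 0.56 for aspirin against control and -0.83 ± 0.56 for hydrogel against aspirin, both with intervals across 0. Jund, the Jun subunit of highest FPKM, was at 47.7, 99.3 and 36.1 CPM in the controls, 58.3, 39.0 and 44.1 CPM with aspirin and 56.2, 55.4 and 41.7 CPM with the hydrogel. Its groups overlapped too, and control 2 was the only library far above the rest. Jun (58.6 to 139.9 CPM) and Fosl2 (40.0 to 77.4 CPM) had log2 fold changes within 0.26 of 0 in each comparison, with intervals of up to 0.98 in size.

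The stress factor Atf3 and the small Maf proteins are bZIP factors as well. Atf3 was at 20.7, 24.5 and 22.7 CPM in the controls, 22.0, 28.3 and 12.3 CPM with aspirin and 18.9, 18.2 and 6.07 CPM with the hydrogel. The controls were close together and above all hydrogel libraries, and hydrogel 3 was the lowest. The difference in log2 of -0.65 ± 0.44 had an interval of -1.64 to 0.33.

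Maff (ENSMUSG00000042622, chromosome 15, 79346621 to 79359076, plus strand), which forms dimers with itself and with CNC-type factors at antioxidant response elements, was at 2.99, 10.9 and 6.17 CPM in the controls, 3.78, 3.79 and 1.94 CPM with aspirin and 1.57, 2.54 and 2.20 CPM with the hydrogel. The hydrogel libraries were below every control and the aspirin libraries in between, with overlap on both sides. Maff was 3.18-fold lower with hydrogel than in the controls (log2 -1.67 ± 0.50, adjusted p 0.987 by edgeR). For aspirin against control the value was -1.07 ± 0.49, with an interval of -2.19 to 0.044 that includes 0.

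Mafk (ENSMUSG00000018143, chromosome 5, 139791513 to 139802653, plus strand), its close relative, was at 18.4, 44.9 and 18.2 CPM in the controls, 20.3, 21.1 and 11.97 CPM with aspirin and 13.3, 15.4 and 13.7 CPM with the hydrogel. Again the controls were above the hydrogel libraries without overlap, and control 2 stood far above the others, as it did for Maff. The log2 fold change was -0.94 ± 0.38 against control, with an interval of -1.81 to -0.073, and -0.39 without control 2. Mafk shares 169 exonic bases with the opposite-strand gene Tmem184a.

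The EGR zinc fingers showed no separation of the groups. Egr1, a direct target of serum response factor, was at 47.5, 26.1 and 29.0 CPM in the controls, 29.1, 20.7 and 52.9 CPM with aspirin and 18.5, 48.5 and 25.7 CPM with the hydrogel. Each group held 1 high library, control 1, aspirin 3 and hydrogel 2. The log2 fold change was -0.15 ± 0.45 for hydrogel against control with an interval of -1.17 to 0.87, and 0.00019 ± 0.45 for aspirin against control. Egr2 (0.804 to 7.23 CPM), a factor of myelinating and activated immune cells, and Egr3 (0.901 to 9.61 CPM), a factor of muscle spindles, averaged 1.01 and 0.842 FPKM against 6.88 for Egr1, with hydrogel against control at -1.04 ± 0.75 and -0.93 ± 0.85.

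The NR4A receptors are orphan nuclear receptors whose activity follows their own expression. Nr4a1 (ENSMUSG00000023034, chromosome 15, 101254269 to 101274795, plus strand), the highest of the 36 by FPKM, was at 135, 345 and 191 CPM in the controls, 40.4, 73.6 and 89.1 CPM with aspirin and 136, 146 and 242 CPM with the hydrogel. The aspirin libraries were below all 6 of the others, and the control and hydrogel libraries overlapped. Its log2 fold change was -1.72 ± 0.45 for aspirin against control, with an interval of -2.74 to -0.70 and adjusted p-values of 0.753 by edgeR and 0.0329 by DESeq2. With hydrogel it was 1.37 ± 0.45 higher than with aspirin alone, with an interval of 0.36 to 2.38 and an adjusted p of 0.453 by edgeR. Over the alternatives and left-out libraries the aspirin difference stayed between -1.99 and -1.27, the smallest without control 2. In deposited FPKM the group means were 56.8 ± 23.0 in the controls, 19.2 ± 2.20 with aspirin and 38.0 ± 5.05 with hydrogel (SD, n = 3 each). In CPM, on which the TMM scaling acts, the means and SDs were 223 ± 109, 67.7 ± 24.9 and 175 ± 58.4.

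The other 2 receptors were lower per length, with means of 0.829 FPKM for Nr4a2 and 1.81 FPKM for Nr4a3. Nr4a2, best known from dopaminergic neurons, ran from 1.14 to 7.91 CPM, and Nr4a3, known from exercised muscle, from 3.54 to 31.0 CPM. Both had lower means in both treated groups than in the controls, with log2 values of -1.12 ± 0.62 and -0.85 ± 0.75 for aspirin and -1.20 ± 0.63 and -0.85 ± 0.75 for hydrogel, and all 4 intervals include 0. Between hydrogel and aspirin, Nr4a2 and Nr4a3 differed by log2 values of -0.071 and 0.0037, and whether they differ from Nr4a1 in this was not tested.

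**Figure D4:**
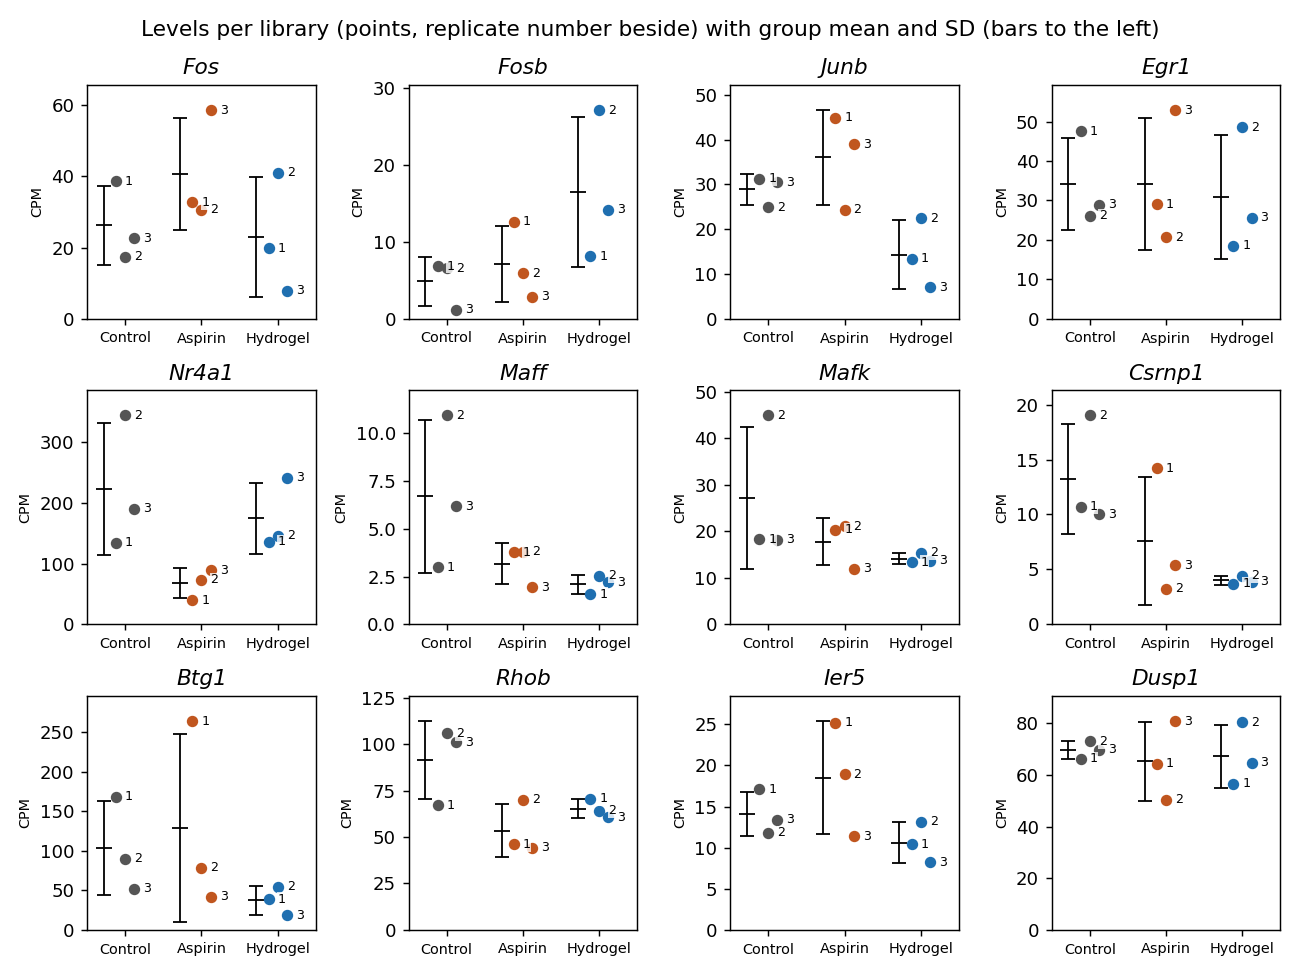
CPM of 12 immediate early genes in each library (points, with the replicate number), with the group mean and SD as a bar to the left of the points; every axis starts at 0. Junb is lowest in the 3 hydrogel libraries, Nr4a1 in the 3 aspirin libraries, and Dusp1 lies within 1.60-fold over all 9.

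Of the Kruppel-like factors, Klf6, a factor of injured tissue and the highest of the 4 by FPKM, was at 65.6, 94.5 and 67.3 CPM in the controls, 87.9, 89.6 and 31.95 CPM with aspirin and 43.0, 64.0 and 41.7 CPM with the hydrogel. The controls lay above the hydrogel libraries by a narrow margin, and the lowest value of all was in aspirin 3. Its log2 fold change was -0.61 ± 0.39 for hydrogel against control, with an interval of -1.5 to 0.27. Klf2, the flow-responsive factor of endothelium, ran from 12.7 to 38.8 CPM, Klf4 from 20.5 to 48.9 CPM and Klf10, a TGF-beta early gene, from 12.3 to 51.9 CPM. Klf4 was the only 1 of the 4 with a higher mean in the hydrogel group than in the controls (0.20 ± 0.37).

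The mRNA decay factors bind AU-rich elements and remove the transcripts of cytokines and of many immediate early genes. Zfp36l1 was at 97.4, 53.9 and 60.3 CPM in the controls, 133, 91.3 and 61.8 CPM with aspirin and 49.5, 79.3 and 50.4 CPM with the hydrogel. The groups overlapped, with aspirin 1 the highest, and no interval excluded 0. Zfp36, which encodes tristetraprolin, was lower in all 3 hydrogel libraries (20.3, 43.9 and 34.5 CPM) than in the controls (51.4, 68.9 and 54.4 CPM), at -0.82 ± 0.40 in log2. Zfp36l1 shares 1672 exonic bases with the opposite-strand gene Gm26669.

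Among the MAP kinase phosphatases, Dusp1 was at 66.3, 73.0 and 69.8 CPM in the controls, 64.3, 50.5 and 81.0 CPM with aspirin and 56.6, 80.6 and 64.7 CPM with the hydrogel. The groups overlapped fully, and all 3 of its log2 fold changes lay within 0.10 of 0, with intervals that reach 0.62 in size. Dusp6, the cytosolic phosphatase of ERK, was at 17.5, 15.5 and 13.9 CPM with hydrogel and 28.3, 14.9 and 27.2 CPM in the controls, with 1 control among the hydrogel values (-0.59 ± 0.28). Dusp5, a nuclear phosphatase of ERK, was lower in every hydrogel library (3.02, 3.87 and 2.44 CPM) than in every aspirin library (8.93, 4.45 and 4.69 CPM), at -0.95 ± 0.45. Dusp5 shares 547 exonic bases with an opposite-strand gene.

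Dusp2 and Btg1 had their highest values in the same pair of libraries, aspirin 1 and control 1. That pair was also the highest for others of the 36, among them Btg2, Dusp5, Egr3, Klf2, Zfp36l1 and Ier2. Dusp2 was at 12.8, 3.64 and 2.12 CPM in the controls, 20.1, 2.39 and 1.89 CPM with aspirin and 1.38, 3.66 and 0.734 CPM with the hydrogel. Btg1 (ENSMUSG00000036478, chromosome 10, 96617006 to 96622809, plus strand), an antiproliferative protein of quiescent cells, was at 168, 89.9 and 52.0 CPM in the controls, 264, 78.9 and 42.1 CPM with aspirin and 39.1, 54.6 and 18.5 CPM with the hydrogel. Aspirin 1 and control 1 were highest for both genes and hydrogel 3 was lowest, so that the groups overlapped. The sum of the T cell genes Cd3e, Cd3g, Cd8a and Cd4 was also highest in these 2 libraries, at 90.5 CPM in control 1 and 80.3 CPM in aspirin 1, against 6.43 to 52.0 CPM in the other 7, with 1 of the 4 at 0 in aspirin 3 and in hydrogel 3. It was looked up after the values of Dusp2 were seen, and the part of T cells in them was not tested. For hydrogel against aspirin the log2 fold changes were -1.78 ± 0.72 for Btg1 (interval -3.42 to -0.14, adjusted p 0.453 by edgeR) and -2.08 ± 1.08 for Dusp2 (interval -4.52 to 0.35). Without aspirin 1 they were -0.69 and -0.15.

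Csrnp1 (ENSMUSG00000032515, chromosome 9, 119971163 to 119984658, minus strand), a nuclear protein induced by axin and TGF-beta, was the immediate early gene with the lowest log2 fold change between hydrogel and control. It was at 10.7, 19.0 and 10.03 CPM in the controls, 14.2, 3.26 and 5.37 CPM with aspirin and 3.70, 4.44 and 3.87 CPM with the hydrogel. The hydrogel libraries lay close together below every control, and aspirin 1 was among the controls while aspirin 2 was the lowest of all. It was 3.31-fold lower with hydrogel than in the controls (log2 -1.73 ± 0.52, interval -2.91 to -0.55, adjusted p 0.987 by edgeR). Csrnp1 shares 224 exonic bases with an opposite-strand gene.

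Rhob (ENSMUSG00000054364, chromosome 12, 8497661 to 8500009, minus strand) was at 67.2, 106 and 101 CPM in the controls, 46.1, 70.1 and 44.3 CPM with aspirin and 70.7, 64.3 and 60.8 CPM with the hydrogel. Controls 2 and 3 were the highest, while control 1 lay among the treated libraries, so no groups separated. The log2 fold change of aspirin against control was -0.77 ± 0.26, with an interval of -1.37 to -0.18 and an adjusted p of 0.753 by edgeR, and it was -0.51 with library size alone. Gadd45g was at 18.8, 66.6 and 94.1 CPM in the controls, 10.02, 43.4 and 13.6 CPM with aspirin and 24.9, 44.8 and 116 CPM with the hydrogel. The groups overlapped, and hydrogel 3, the lowest library for 15 of the genes, was the highest for this one. Its log2 values of -1.42 ± 0.79 for aspirin against control and 1.47 ± 0.79 for hydrogel against aspirin had intervals across 0.

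Ier5, a regulator of heat shock factor, was at 17.1, 11.8 and 13.4 CPM in the controls, 25.2, 18.9 and 11.4 CPM with aspirin and 10.4, 13.1 and 8.21 CPM with the hydrogel. The hydrogel libraries were low, with overlap of both other groups, and aspirin 1 and aspirin 2 were the highest. For hydrogel against aspirin the log2 fold change was -0.80 ± 0.32 (interval -1.53 to -0.077, adjusted p 0.453 by edgeR), and -0.52 without aspirin 1. Ier2, a nuclear protein, was lower in the hydrogel libraries (10.9, 11.2 and 6.37 CPM) than in all controls (19.5, 12.7 and 14.2 CPM), at -0.70 ± 0.32.

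Myc was at 10.3, 9.31 and 10.5 CPM in the controls, 13.2, 11.3 and 6.63 CPM with aspirin and 6.72, 9.97 and 7.28 CPM with the hydrogel. The controls lay between 9.31 and 10.5 CPM, inside the span of the aspirin group. All 3 of its log2 fold changes were within 0.38 of 0. The remaining genes of growth and stress were Btg2, a p53 target (16.8 to 95.9 CPM), Ier3 (2.20 to 7.63 CPM), an inhibitor of apoptosis, and Gadd45b (9.81 to 28.9 CPM), a stress sensor upstream of p38 and JNK. For hydrogel against control their log2 values were -0.95 ± 0.53, -0.25 ± 0.38 and -0.70 ± 0.37, all with intervals that include 0.

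Genes around the response were counted from a list of 64: 14 upstream kinases, 15 resident transcription factors such as Srf and Creb1, 9 inhibitors and 26 other early response genes. 0 of 64 passed edgeR's adjusted p in any comparison. Their median log2 fold changes were -0.15 for aspirin against control, 0.0073 for hydrogel against control and 0.19 for hydrogel against aspirin. In the last 2, where the immediate early genes had -0.54 and -0.52, 31 and 27 of the 64 were lower. The resident transcription factors had medians of 0.25 and 0.31 and the kinases 0.098 and 0.22. The inhibitors had -0.23 and -0.061, with 7 and 5 of 9 lower. Medians of the other early response genes were -0.22 and 0.15, with 16 and 12 of 26 lower. At an unadjusted edgeR p under 0.05 there were 2 higher and 2 lower of 64 for aspirin against control, 0 and 1 for hydrogel against control, and 2 and 5 for hydrogel against aspirin, close to the backgrounds of 3.09% and 3.39%, 1.74% and 2.18%, and 3.32% and 7.61%.

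Socs3, the feedback inhibitor of JAK-STAT signalling, was at 13.2, 11.6 and 19.9 CPM in the controls, 45.9, 14.6 and 44.4 CPM with aspirin and 8.998, 11.5 and 3.04 CPM with the hydrogel. All hydrogel libraries lay below all aspirin libraries and, by a narrow margin, below all controls, and aspirin 1 and 3 were far above the others. Its log2 fold change of hydrogel against aspirin was -2.15 ± 0.56, with an interval of -3.43 to -0.87 and adjusted p-values of 0.453 by edgeR and 0.0266 by DESeq2. Nab2, a corepressor of the EGR proteins, was at 11.8, 5.72 and 11.2 CPM in the controls, 25.3, 15.8 and 14.1 CPM with aspirin and 9.38, 10.5 and 6.77 CPM with the hydrogel. The aspirin libraries stood above both other groups, at log2 0.94 ± 0.35 over control, with hydrogel at -1.05 ± 0.35 against aspirin. Npas4, a calcium-dependent early gene, was at 0.407, 0.313 and 0.320 CPM in the controls, 1.95, 2.86 and 0.372 CPM with aspirin and 1.84, 0.997 and 0.367 CPM with the hydrogel. The controls were uniformly low and both treated groups spread, with a log2 fold change of 2.31 ± 0.80 for aspirin against control.

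The remaining genes named for the smallest p among the 64 were these. Spry1, an inhibitor of receptor tyrosine kinase signalling like Spry4 and Spred1, was 1.77-fold lower with aspirin than in the controls (log2 -0.83 ± 0.28), Spry4 was at -0.92 ± 0.40 for hydrogel against control and Spred1 at -0.84 ± 0.25 for hydrogel against aspirin. Their relatives Spry2 and Spred2 had unadjusted edgeR p-values of 0.582 and 0.0872 for aspirin against control, and above 0.05 in the other comparisons too. For hydrogel against control the next were Cyr61, a matrix protein of early response, at -0.71 ± 0.32 and the CREB-coactivator kinase Sik1 at -0.71 ± 0.33. None passed the adjusted p by edgeR.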

How the data were processed

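RNA was sequenced from leg muscle of 9 mice, and per the labels' protocols the libraries were made from total RNA with the SMARTER mRNA kit. The authors deposited whole-number counts per gene, not normalised, and an FPKM table for the same genes and libraries. Per the submitters' processing notes, reads were placed on mm10. The sources used here do not name the aligner, the counting tool, the annotation or the use of strand. Groups came from the treatment labels, which describe separate mice. All pairs of libraries differed beyond sampling noise (smallest chi-square per degree of freedom 77.8).

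The 36 genes, their roles and the 64 genes around them were chosen with earlier results of these data known. Counts of all 9 libraries were fitted with edgeR 4.0.16 (R 4.3.3, TMM, robust quasi-likelihood, group as the only term; genes kept by filterByExpr with a minimum count of 10 and total of 15). P-values were Benjamini-Hochberg adjusted over 18259 genes with a threshold of 0.05. The common biological coefficient of variation was 0.503. SEs come from the quasi-likelihood F. CPM are counts over the TMM-scaled library size, and FPKM were used only for levels between genes and, for Nr4a1, also between groups. Log2 CPM used a prior count of 1. Genes with full per-library values are those of unadjusted p under 0.05 in a comparison (or the 4 smallest), the highest FPKM of each role, and Fos, Egr1, Nr4a1 and Myc; from the 64, the 3 genes of smallest p in each comparison are named. Dusp2, and the group values of Zfp36, Dusp5, Dusp6 and Ier2, were added after they were seen. Coordinates are 1-based, from GENCODE vM21 on mm10; the promoter windows are RefSeq's on GRCm38.p6. Alternatives were RLE size factors, library size alone, other filters, DESeq2 1.42.0, limma-voom (limma 3.58.1), the 2 groups compared alone, a replicate block and leaving out each library. The lymphocyte list among the cell type markers is not reported here as a whole.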

Additional observations from a re-analysis of the deposited data

How the results depend on the processing

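Under 17 alternatives to the reported fit, the 13 pairs of a comparison and a gene chosen for its small p kept their direction in 221 of 221 results, and 1 result passed the threshold: Nr4a1 lower with aspirin by DESeq2. DESeq2 called 101, 18 and 157 of all genes for aspirin against control, hydrogel against control and hydrogel against aspirin, against 0 by edgeR in each, and 1 of the 36 genes in the first. Limma-voom called 0. With library size alone, without TMM, the median of all genes moved from 0.046, -0.03 and -0.053 to 0.27, -0.25 and -0.51. The immediate early genes then had medians of 0.19, -0.76 and -0.9995, with 10, 34 and 33 of 36 lower, and their distance from all genes was -0.080, -0.51 and -0.49 against -0.11, -0.51 and -0.46 in the reported fit. Leaving out 1 library gave medians of -0.26 to 0.14 for aspirin against control, -0.79 to -0.42 for hydrogel against control and -0.75 to -0.22 for hydrogel against aspirin, the last without aspirin 1. All genes called were 0 to 2 in hydrogel against aspirin, with 2 without aspirin 3, and 0 in the other comparisons. Over the 18 settings, 9 genes stayed lower and 6 higher for aspirin against control, 23 and 1 for hydrogel against control, and 24 and 3 for hydrogel against aspirin. Fosl1, counted among the 6 and the 24, was fitted in only 16 and 17 of the settings.

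The labels do not say whether the numbers of the replicates pair the samples. Same-number correlations of deviations ran from -0.44 to 0.62 and 7 of 9 were over 0.1, while different-number ones ran from -0.61 to 0.59. In addition, 3 libraries correlated best with their own number in both other groups. These values do not settle whether the samples are paired. With a replicate block, 1 gene of the whole table was called for hydrogel against aspirin, none of the 36 genes was called, and 3, 9 and 5 of the 36 had an unadjusted p under 0.05, against 2, 5 and 4 without it. Groups of 3 limit what could be detected, and a gene without counts in a library lies below 0.0554 to 0.1001 CPM.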
